A study of Mus musculus with 9 samples.

Results

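The 10 genes described here encode immediate early transcription factors and were taken by symbol from the raw count table, where all 10 of them were found among 55011 genes. They are 3 EGR zinc finger genes (Egr1, Egr2, Egr3), 3 NR4A orphan nuclear receptor genes (Nr4a1, Nr4a2, Nr4a3) and 4 genes of the AP-1 family (Fos, Fosb, Jun, Junb). RNA came from wild-type (WT) mouse naive CD8 T cells of the spleen, all stimulated for 6 h with plate-bound antibodies against CD3 and CD28 at 4 µg/mL. The 3 control libraries received no 2-hydroxyglutarate, 3 libraries came from cells given 20 mM D-2HG when stimulation began, and 3 from cells given 20 mM L-2HG at the same moment. D-2HG and L-2HG are mirror-image forms of 2-hydroxyglutarate, and the series asks how D-2HG, which tumours with mutant isocitrate dehydrogenase produce, alters CD8 T cells. Every group was stimulated, so no library shows resting levels, and all values come from a single time point. Nothing in the labels ties a replicate to its own animal or culture, and the p-values therefore measure the spread between these libraries, which may be technical.

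Immediate early genes are switched on within minutes of antigen receptor signalling, without new protein synthesis, through factors already present in the cell: serum response factor and its ternary complex partners, CREB, MEF2 and NFAT. Their transcripts are short-lived, and most decline within hours while the proteins they encode drive later programmes. In T cells, AP-1 dimers of a FOS and a JUN protein cooperate with NFAT at cytokine genes. EGR2, EGR3 and the NR4A receptors are known for roles in tolerance, checkpoint receptor expression and restraint of effector function.

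RefSeq promoter windows on build GRCm38.p6 were taken for 8 of the 10 genes. Egr1 was not looked up, and Egr3 had no window in the source used here. The 250 bases before the start site are printed for Fos and Jun, which carry the lower calls, and for Junb and Nr4a1, the most abundant members of their families, so that the response elements can be set side by side. The Fos window is chr12:85473640-85473889 on the + strand, the Jun window chr4:95052223-95052472 on the - strand, the Junb window chr8:84978749-84978998 on the - strand and the Nr4a1 window chr15:101266596-101266845 on the + strand. Each is read 5′ to 3′ toward the gene, with capitals for CREB response element (CRE) half-sites, TGACG on one strand or CGTCA on the other, and for the TRE-like octamer TGACATCA.
Fos: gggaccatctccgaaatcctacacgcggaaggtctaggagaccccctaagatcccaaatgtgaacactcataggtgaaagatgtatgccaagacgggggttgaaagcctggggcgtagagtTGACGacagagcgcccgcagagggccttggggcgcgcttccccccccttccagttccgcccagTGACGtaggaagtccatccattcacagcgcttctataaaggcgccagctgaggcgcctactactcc
Jun: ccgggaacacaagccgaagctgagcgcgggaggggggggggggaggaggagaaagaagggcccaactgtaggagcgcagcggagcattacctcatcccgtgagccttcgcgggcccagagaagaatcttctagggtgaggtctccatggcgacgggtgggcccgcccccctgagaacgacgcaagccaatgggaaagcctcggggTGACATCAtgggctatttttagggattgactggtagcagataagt
Junb: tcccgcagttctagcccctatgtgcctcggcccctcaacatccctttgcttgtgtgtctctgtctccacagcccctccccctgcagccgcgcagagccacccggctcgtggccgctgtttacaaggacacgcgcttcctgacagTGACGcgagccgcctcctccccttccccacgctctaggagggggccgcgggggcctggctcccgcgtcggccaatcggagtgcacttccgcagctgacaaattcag
Nr4a1: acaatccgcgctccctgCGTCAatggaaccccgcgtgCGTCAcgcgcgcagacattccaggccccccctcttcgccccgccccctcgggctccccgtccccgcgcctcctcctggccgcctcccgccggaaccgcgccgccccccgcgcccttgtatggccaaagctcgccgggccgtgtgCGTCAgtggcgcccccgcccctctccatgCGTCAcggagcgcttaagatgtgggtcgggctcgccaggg
The Nr4a1 window held 4 half-sites, whose first bases lay 233, 213, 69 and 40 bases before the start. The Fos window held half-sites 129 and 66 bases before the start, and a TATAAA 33 bases before it, the latter searched on the coding strand only. The Junb window held 1 half-site, 106 bases before the RefSeq start, which itself lies 30 bases upstream of the GENCODE start. The Jun window held no TGACG, and its TGACATCA began 45 bases before the start. Of 27025 promoters of the same 300-base design (250 bases before and 50 after the start, both strands), 21.0% held at least 1 half-site, 5.20% at least 2 and 0.252% at least 4. TGACATCA was found in 3.76% of them. Of the 8 members with a window, 7 held a half-site, and none held the full CRE TGACGTCA (1.88% of promoters) or the TRE letters TGACTCA or TGAGTCA (5.17%). The EGR site letters GCGTGGGCG or GCGGGGGCG (3.49% of promoters) were in 2 of the 8, Nr4a1 and Fosb. Within the windows, a CArG box, the serum response factor site, was in Egr2 alone (1.57% of promoters held one). Bases further than 250 before the start were not searched, so a gene without a match here may hold one outside its window. The NR4A site letters AAAGGTCA were in none of the 8 (1.46% of promoters). TATAAA was in 2 of the 8 (8.88% of promoters), Fos and Junb, and in Junb it began at the RefSeq start. These are matches of letters and not measured binding.

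Total counts ran from 562627 to 5731885 per library, and the 10 genes took 0.276% to 0.453% of them. L-2HG replicate 2 was the shallowest library. Transcripts of the satellite-derived genes Gm10800 and Gm10801 took 0.910% to 5.35% of counts in control libraries, 3.79% to 17.0% with D-2HG and 6.71% to 24.4% with L-2HG, highest in D-2HG replicate 3 and L-2HG replicate 2. Mitochondrial transcripts averaged 2.66% of counts in control, 1.54% under D-2HG and 1.49% under L-2HG. The satellite share thus moved with the groups, and its values as a covariate are given beside each called member. All 7 CD8 T cell markers were counted in every library. Their summed level was 3664 to 5953 CPM (counts scaled to a common library total) in control, 3130 to 3605 with D-2HG and 2971 to 4150 with L-2HG.

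Per kilobase of exon, Nr4a1 was by far the most abundant of the 10 in control cells, at 515 ± 58.2 CPM per kb (SD, n = 3), rank 93 among 10231 genes. Junb followed at 128 ± 10.6 CPM per kb. Egr2 (69.4 ± 7.37), Nr4a2 (54.7 ± 13.2), Egr1 (46.9 ± 8.72) and Nr4a3 (36.6 ± 6.20) formed a middle group in which each neighbour overlapped the next in range. Fos at 20.5 ± 1.66, Egr3 at 9.70 ± 2.12, Jun at 3.14 ± 0.43 and Fosb at 0.26 ± 0.12 CPM per kb came below, and their control ranges did not overlap one another. Junb thus dominated the 4 AP-1 genes, with 84.2% of their summed CPM per kb in control cells and 93.1% and 92.3% under D-2HG and L-2HG.

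**Figure D1:**
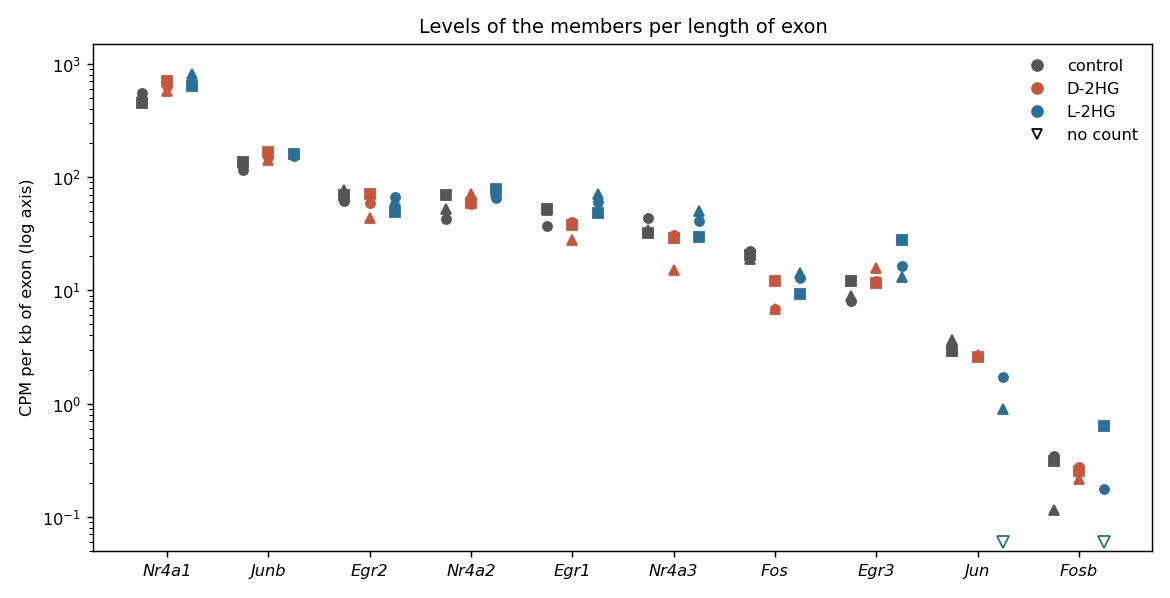
Level of each gene per length of exon (CPM per kb, log axis) in every library, with colours for the 3 groups, marker shapes for replicate numbers and open triangles for libraries without a count. Nr4a1 lies highest in each group, with a control mean of 515 CPM per kb, and Fosb lowest, at 0.26.

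The order of the means changed at 2 places with D-2HG, where Nr4a2 stood above Egr2 and Egr3 above Fos. With L-2HG, Nr4a2 and Egr1 both stood above Egr2, and Egr3, at 19.1 ± 7.71 CPM per kb, stood above Fos. The swapped pairs overlapped in range within their treatment group, so these orders do not exceed the spread.

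Fos, whose protein forms AP-1 dimers with JUN proteins, fell with D-2HG. Its level was 52.3, 48.0 and 44.5 CPM in the control libraries, 16.2, 28.3 and 16.2 CPM with D-2HG, and 30.0, 21.7 and 33.3 CPM with L-2HG. Every control library lay above every library of either treatment, while D-2HG and L-2HG overlapped. The gene is annotated on build mm10 at chr12:85473890-85477273, + strand. The log2 fold change with D-2HG was -1.22 ± 0.25 (SE; 95% interval -1.75 to -0.70), a level 2.33-fold lower, with an adjusted p of 0.0048 in edgeR's quasi-likelihood test. With L-2HG it was -0.71 (-1.25 to -0.16), with an adjusted p of 0.0614 that missed the threshold of 0.05. D-2HG against L-2HG gave -0.52 (-1.08 to 0.04; adjusted p = 0.764), so a difference between the isomers was not shown and an interval this wide does not show that they act alike. With the satellite share as a covariate, the D-2HG value was -0.96 (adjusted p = 0.132). Leaving out any 1 of the 9 libraries kept it past the threshold, at values from -1.58 to -1.09.

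Jun, the founding JUN-family partner of FOS, fell with L-2HG. Control libraries held 9.24, 9.21 and 11.6 CPM, D-2HG libraries 8.26, 8.22 and 8.58 CPM, and L-2HG libraries 5.48, 0 and 2.85 CPM. In counts these were 39, 19 and 64, then 24, 36 and 19, then 15, 0 and 6. The 0 belonged to L-2HG replicate 2, where 3 counts, the limit that a count of 0 allows, equal 5.92 CPM, so that library sets only a loose bound. The 3 groups did not overlap in these values, but without TMM scaling control replicate 1 (8.17 CPM) lay below D-2HG replicates 1 and 2 (8.54 and 8.70 CPM). Jun is a gene of 1 exon at chr4:95049034-95052222 on the - strand, and it shares 232 exonic bases with the antisense gene Junos, which had 19 counts in all. The L-2HG log2 fold change was -1.44 (-2.37 to -0.50; edgeR adjusted p = 0.0370), against -0.28 (-1.05 to 0.50; adjusted p = 0.601) with D-2HG. D-2HG against L-2HG gave 1.16 (0.20 to 2.12), which did not pass the correction (adjusted p = 0.583). The L-2HG call was lost without control replicate 1 (adjusted p = 0.0910), control replicate 3 (0.131), L-2HG replicate 2 (0.0687) or L-2HG replicate 3 (0.0860). It was also lost without TMM (-1.31, adjusted p = 0.0651), with only the L-2HG and control libraries in the fit (-1.42, 0.0861) and with the satellite share as a covariate (-1.13, 0.652). The reads expected from genomic background, estimated from the exons of chemosensory receptor genes that T cells do not use, came to 1.05% to 63.5% of Jun counts in the libraries with any, and after their subtraction the value was -1.78 (adjusted p = 0.0575).

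Junb, which pairs with FOS proteins and with BATF in T cells, had 267, 313 and 304 CPM in control, 346, 381 and 325 under D-2HG and 355, 367 and 366 under L-2HG. All treated libraries lay above all control libraries with TMM scaling, by a small margin, and without it D-2HG replicate 3 (296 CPM) fell below control replicate 2 (324 CPM). The log2 fold changes of 0.25 (-0.12 to 0.62) with D-2HG and 0.30 (-0.07 to 0.67) with L-2HG did not pass the test (edgeR adjusted p = 0.297 and 0.226). Junb shares 173 exonic bases with Prdx2 on the opposite strand, which had 3463 counts in all. The strand setting of the counting is not given in the sources used here, and the effect of this overlap on Junb counts was not tested. Fosb, a FOS paralogue, was near the detection limit, with 0 to 9 counts per library, and did not pass the filter on low counts. No change in it was detectable at this depth.

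Within AP-1, Fos made up 13.6% ± 1.87 of the summed CPM per kb in control, 5.18% ± 1.30 under D-2HG and 7.04% ± 1.41 under L-2HG. The log2 ratio of Junb to Jun was 4.79 ± 0.18 in control, 5.28 ± 0.14 under D-2HG and 7.21 ± 1.68 under L-2HG, the last including 9.09 in the library without a Jun count (prior count of 2). The 3 groups did not overlap in this ratio. A 2-sided exact permutation test gave p = 0.1 for each pair of groups, the smallest that 3 against 3 libraries allow, so no ratio reported here could pass 0.05.

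Egr3, which with EGR2 restrains T cell activation, rose with L-2HG. It had 35.8, 53.3 and 39.1 CPM in control, 53.0, 51.2 and 69.1 CPM with D-2HG, and 72.4, 122 and 57.6 CPM with L-2HG. All L-2HG libraries lay above all control libraries, with L-2HG replicate 2 the highest, while D-2HG overlapped both. Egr3 lies at chr14:70077203-70082614, + strand. The log2 fold change was 0.92 (0.37 to 1.47; edgeR adjusted p = 0.0276) with L-2HG, 1.89-fold higher, and 0.44 (-0.09 to 0.98; adjusted p = 0.202) with D-2HG. D-2HG against L-2HG gave -0.47 (-1.02 to 0.07; adjusted p = 0.772). The call was lost without control replicate 1 (0.78, adjusted p = 0.116), control replicate 3 (0.84, 0.122), L-2HG replicate 1 (0.98, 0.0700) or L-2HG replicate 2 (0.61, 0.107). It was also lost without a count filter (0.65, adjusted p = 0.181), with only the L-2HG and control libraries in the fit (0.94, 0.0660) and with the satellite share as a covariate (0.24, 0.884).

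Egr1, a prototype of the immediate early class, had 165, 236 and 230 CPM in control, 181, 169 and 126 CPM with D-2HG, and 273, 215 and 317 CPM with L-2HG. Both treatments overlapped control, but every D-2HG library was below every L-2HG library. The estimates were -0.40 (-0.84 to 0.04; edgeR adjusted p = 0.161) with D-2HG and 0.37 (-0.08 to 0.81; adjusted p = 0.211) with L-2HG. The difference between the isomers was -0.77 (-1.22 to -0.33), unadjusted p = 0.0017 and adjusted p = 0.202. Egr2, known for its part in T cell anergy, had 210, 237 and 260 CPM in control, 200, 240 and 148 under D-2HG and 225, 166 and 209 under L-2HG. Its values overlapped in all comparisons, with an estimate of -0.26 for D-2HG and -0.22 for L-2HG relative to control and -0.04 between the isomers, none past the test. The log2 ratio of Egr2 to Egr3 was 2.46 ± 0.29 in control, 1.74 ± 0.58 under D-2HG and 1.30 ± 0.76 under L-2HG, with exact permutation p = 0.2 and 0.1 against control.

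**Figure D2:**
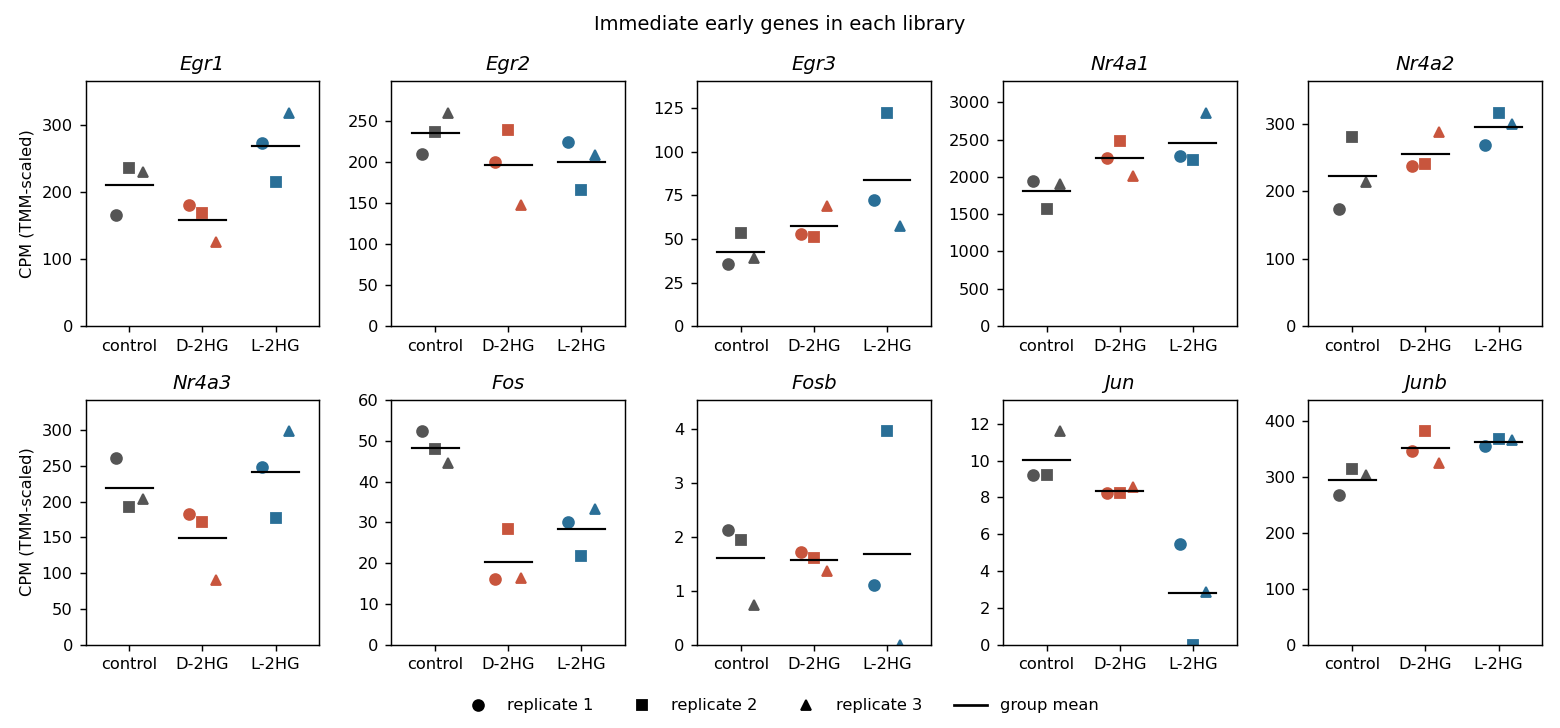
CPM of each of the 10 genes in every library (linear axes from 0, scaled per panel), with points for libraries, shapes for replicate numbers and a line for the mean of 3. For Fos every treated library lies under the control range of 44.5 to 52.3 CPM, and for Jun the L-2HG libraries lie at or under 5.48 CPM.

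Nr4a1, which encodes the NUR77 receptor used as a gauge of antigen receptor signal strength, was the highest of the 10 per kilobase of exon in all 9 libraries. It had 1941, 1571 and 1907 CPM in control, 2258, 2483 and 2007 CPM with D-2HG, and 2285, 2227 and 2858 CPM with L-2HG. All treated libraries were above all controls with TMM scaling, while without it D-2HG replicate 3 (1828 CPM) lay just below control replicate 3 (1838 CPM). The log2 fold changes of 0.32 (-0.10 to 0.73) with D-2HG and 0.44 (0.02 to 0.86) with L-2HG did not pass the edgeR test (adjusted p = 0.247 and 0.115). Nr4a2 had 174, 280 and 213 CPM in control, 237, 240 and 287 under D-2HG and 268, 316 and 300 under L-2HG. These ranges overlapped, at 0.20 and 0.41 on the log2 scale, neither past the test.

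Nr4a3, the NR4A gene also used as a reporter of recent T cell receptor engagement, had 262, 192 and 204 CPM in control, 183, 172 and 90.8 CPM under D-2HG and 248, 178 and 298 CPM under L-2HG. D-2HG replicate 3 was the lowest of the 9, and each D-2HG library but the highest lay under the L-2HG range. The D-2HG estimate was -0.56 (-1.07 to -0.04; edgeR adjusted p = 0.101), the L-2HG estimate 0.15 (adjusted p = 0.676), and D-2HG against L-2HG -0.71 (-1.23 to -0.19; adjusted p = 0.465). The ratio of Nr4a1 to Nr4a3 on the log2 scale was 3.04 ± 0.17 in control, 3.97 ± 0.43 under D-2HG and 3.37 ± 0.24 under L-2HG. D-2HG and control did not overlap in it (exact permutation p = 0.1).

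Of the 9 genes that passed the filter on low counts, 0 were called higher and 1 lower with D-2HG, 1 higher and 1 lower with L-2HG, and 0 differed between D-2HG and L-2HG at an adjusted p under 0.05. At an unadjusted edgeR p under 0.05 these numbers were 2, 4 and 3. The weakest of these were Nr4a3 with D-2HG, Nr4a1 with L-2HG and Jun between the isomers. By p they ranked 3515, 3468 and 359 among the 10235 tested genes, so at least that many genes passed the same unadjusted limit. Among all 10235 tested genes, 22.3% were called with D-2HG (11.8% higher and 10.5% lower), 17.7% with L-2HG (9.41% higher and 8.30% lower) and 0.303% between D-2HG and L-2HG (0.0489% higher and 0.254% lower). The members were thus called no more often than the background with D-2HG, and the 2 L-2HG calls of 9 are near it. Control and treated ranges did not overlap for 5 of 9 with D-2HG and 5 of 9 with L-2HG, and the 2 isomers were apart for 2 of 9, against 40.0%, 31.2% and 15.9% of all genes. Without TMM these were 2 (Fos and Nr4a3), 5 and 3 of 9, against 38.2%, 30.6% and 13.8%. The median log2 fold change of the 9 was -0.26 with D-2HG, 0.30 with L-2HG and -0.21 between them, beside 0.04, 0.05 and 0.01 over all genes. Without TMM scaling the medians of all genes were 0.10 and 0.15 against control, and the share of higher calls went from 52.9% to 70.0% with D-2HG and from 53.1% to 77.7% with L-2HG. The comparisons against control share the 3 control libraries.

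**Figure D3:**
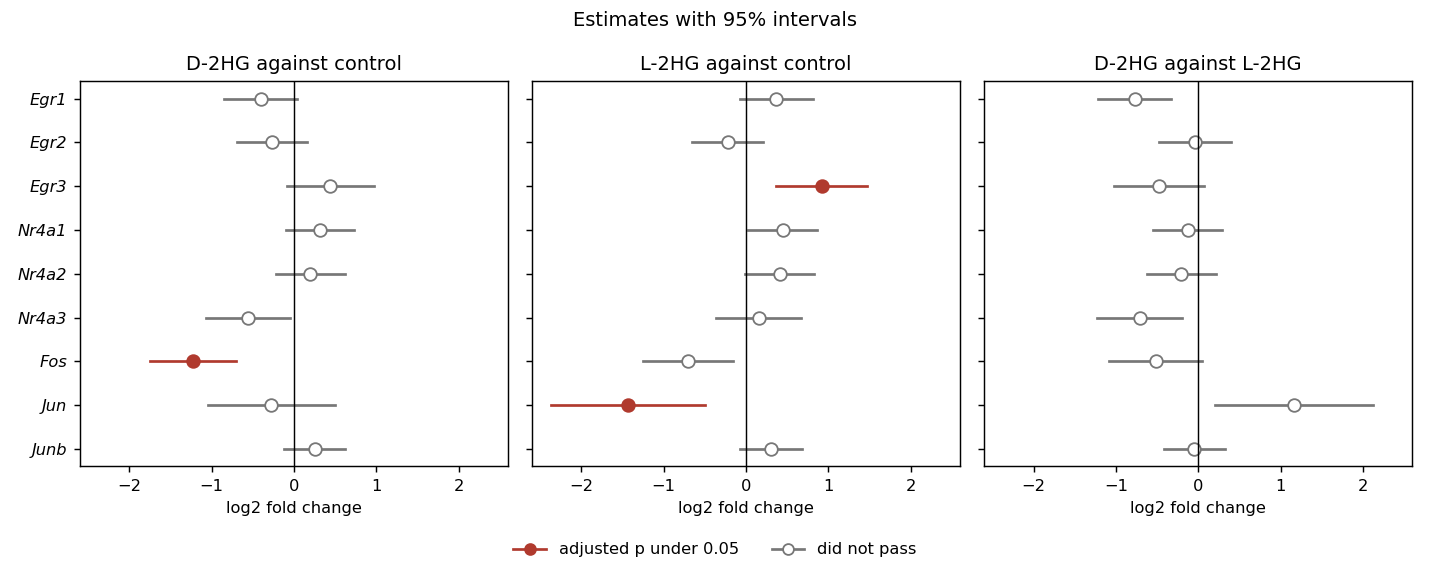
Log2 fold change (points) with 95% interval (lines) for the 9 tested genes in each comparison, filled red where the adjusted p was under 0.05. Fos passes at -1.22 with D-2HG, Egr3 at 0.92 and Jun at -1.44 with L-2HG, and no gene passes between the isomers.

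**Figure D4:**
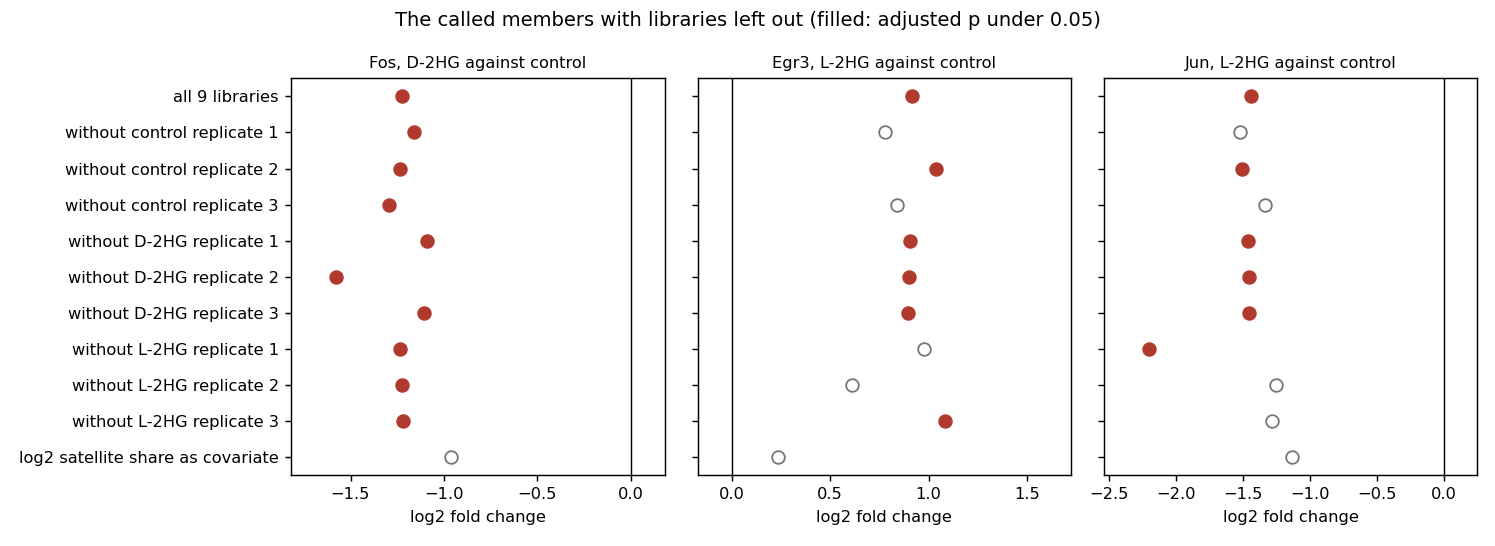
Log2 fold change of the called members with all 9 libraries, with each left out and with the satellite share as a covariate, filled where the adjusted p was under 0.05. Fos keeps its call in every leave-out, at -1.58 to -1.09, while Egr3 and Jun lose theirs in 4 leave-outs each.

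The genes around the members were read from lists of pathway genes, of which the called ones with the smallest adjusted p are named. The counts of every list stand beside 22.3% of all 10235 tested genes called with D-2HG and 17.7% with L-2HG. Of 7 tested other AP-1 genes (11 listed), 3 rose and 0 fell with D-2HG, and 1 rose with L-2HG. Fosl2, which encodes the FOS-family protein FRA2, rose from 52.0 ± 3.98 to 89.6 ± 12.2 CPM with D-2HG (log2 0.79, edgeR adjusted p = 0.0143) and to 110 ± 19.4 CPM with L-2HG (1.06, adjusted p = 0.0080). The small MAF genes Mafg (0.87, adjusted p = 0.0064) and Mafk (0.70, adjusted p = 0.0245) rose with D-2HG. The list's median was 0.70 with D-2HG and 0.28 with L-2HG. None of the 2 tested EGR partners was called in any comparison.

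Of 42 listed symbols of other immediate early genes, 41 were in the count table and 36 were tested. Of the 36, 4 rose and 4 fell with D-2HG, and 4 rose and 2 fell with L-2HG. These calls were near the shares of all tested genes, 22.3% with D-2HG and 17.7% with L-2HG. Those that rose with D-2HG were Ier3, Tnfaip3, Pim1 and Nfkbiz, and those that fell were Rgs2, Klf6, Id2 and Rgs1. Tnfaip3, which encodes the NF-kappaB inhibitor A20, went from 45.1 ± 24.0 to 131 ± 27.1 CPM (1.57, edgeR adjusted p = 0.0073). Rgs2, a regulator of G protein signalling, went from 9.21 ± 1.73 to 1.86 ± 0.17 CPM (-2.27, adjusted p = 0.0058). With L-2HG, Ier3, Rel, Tnfaip3 and Sik1 rose, and Rgs1 and Gadd45g fell. Rgs1 fell from 90.6 ± 15.8 CPM to 61.3 ± 5.90 with D-2HG and to 22.6 ± 2.75 with L-2HG, and D-2HG against L-2HG differed by 1.39 (0.90 to 1.88; adjusted p = 0.0061), the one listed gene called between the isomers. The list's medians against control were 0.02 and -0.04, close to those of all genes.

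Of 6 MAP kinase phosphatases, which switch off the kinases that induce these genes, Dusp6 fell with D-2HG, from 86.6 ± 17.2 to 46.6 ± 8.44 CPM (-0.88, edgeR adjusted p = 0.0142), and no other was called. Of 28 listed symbols of upstream factors, 26 were in the count table and 25 were tested. Of the 25, 2 rose and 1 fell with D-2HG, and 4 rose with L-2HG. Among all tested genes 22.3% were called with D-2HG and 17.7% with L-2HG, and the upstream factors were called no more often. Srf, the serum response factor that drives Fos and Egr genes, fell with D-2HG from 24.9 ± 3.73 to 13.3 ± 2.41 CPM (-0.87, adjusted p = 0.0380). Rasgrp1, which couples the T cell receptor to Ras, was at 43.0 ± 7.79 CPM in control. It rose to 96.7 ± 29.6 CPM with D-2HG (1.17, adjusted p = 0.0409) and to 149 ± 106 CPM with L-2HG (1.71, adjusted p = 0.0164). With 1 library left out, its L-2HG value ran from 1.03 to 1.96. Mef2d also rose with D-2HG, and Rps6ka3, Mef2a and Nfat5 rose with L-2HG. Of 18 tested T cell genes associated with EGR2 and NR4A (23 listed), 1 rose and 7 fell with D-2HG, and 3 rose and 3 fell with L-2HG, with medians of -0.45 and -0.21. The ubiquitin ligase gene Cblb rose with both (0.80, adjusted p = 0.0175, and 1.16, adjusted p = 0.0068). The costimulatory receptor gene Tnfrsf9 fell with both (-1.20, adjusted p = 0.0022, and -1.05, adjusted p = 0.0089), and the anergy-associated gene Nrn1 fell with D-2HG (-1.74, adjusted p = 0.0074). Pdcd1 and Fasl also fell with D-2HG, Pdcd1 and Crtam fell with L-2HG, and Sema7a and Dgka rose with L-2HG.

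**Figure D5:**
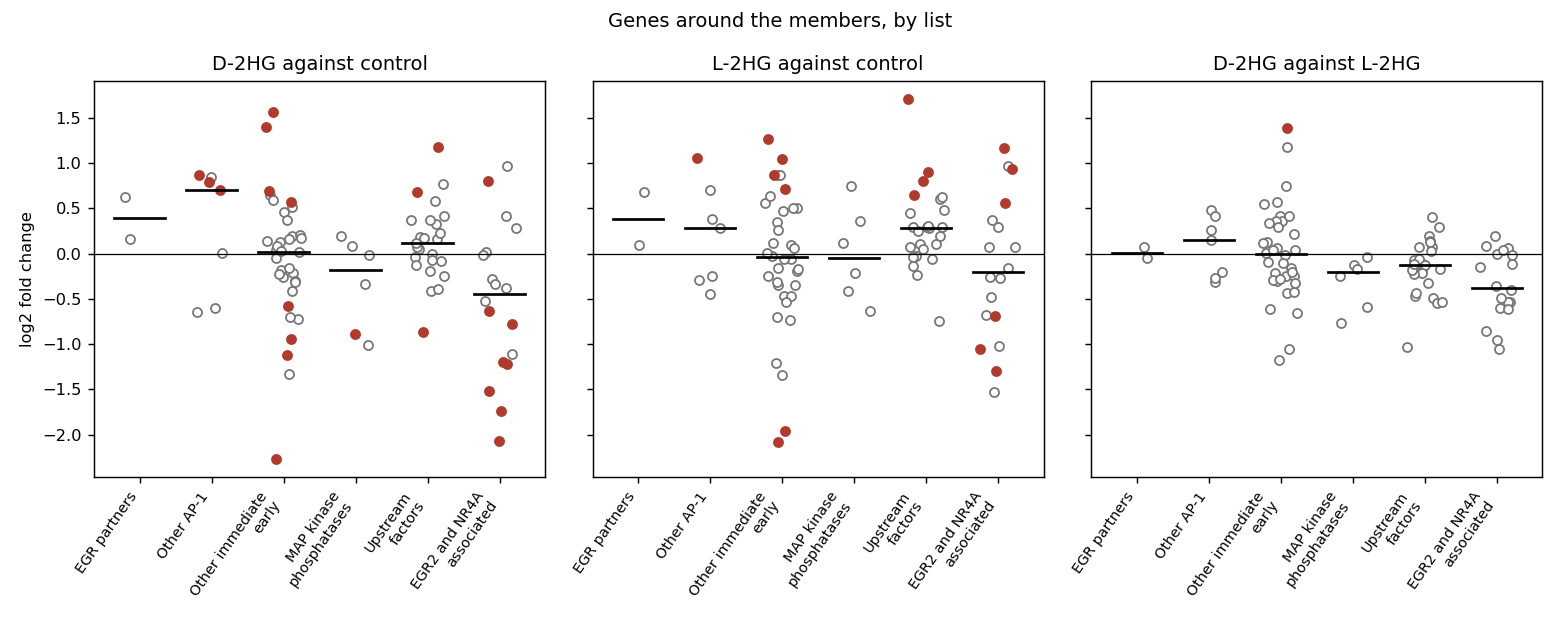
Log2 fold change of each tested gene of the 6 pathway lists in the 3 comparisons, with a bar at the list median and red points where the adjusted p was under 0.05. Other AP-1 genes have a median of 0.70 with D-2HG, and the single call between the isomers is Rgs1 at 1.39.

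Of these named calls, 8 of 20 with D-2HG (Ier3, Klf6, Mafg, Nrn1, Pdcd1, Rgs2, Tnfaip3 and Tnfrsf9) and 2 of 17 with L-2HG (Pdcd1 and Rgs1) held in each leave-out. With D-2HG, 12 of the 20 were lost without control replicate 3, 10 each without control replicate 1, D-2HG replicate 1 or D-2HG replicate 3, and 8 without D-2HG replicate 2, at adjusted p up to 0.208. With L-2HG, 15 of the 17 were lost without control replicate 3, 11 without L-2HG replicate 1, 10 without control replicate 1 and 7 without L-2HG replicate 2, at adjusted p up to 0.219. With the satellite share as a covariate, 19 of the 20 and 16 of the 17 were lost. Rgs1 between the isomers was lost without L-2HG replicate 1 (adjusted p = 0.0571).

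Markers of the cells themselves moved beside these lists. Of 7 CD8 T cell markers, 4 fell with D-2HG (Cd8b1, Cd3e, Cd3g and Trac) and 1 with L-2HG (Trac). Among all tested genes, 10.5% were called lower with D-2HG and 8.30% with L-2HG. Cd3g and Trac under D-2HG were each lost in 6 of 9 leave-outs, and Cd8b1 and Cd3e in 3. In bulk RNA, fewer cells of a type and less RNA per cell cannot be told apart. Of 6 B cell markers, 2 were tested. Ighm fell with both treatments, from a mean of 239 CPM in control to 127 with D-2HG and 151 with L-2HG. The other tested gene, Cd79b, was not called with either. The list, most of it Ighm, summed to 176 to 317 CPM in control, 134 to 137 with D-2HG and 136 to 198 with L-2HG. The dendritic cell marker Zbtb46 passed with L-2HG (1.10, edgeR adjusted p = 0.0382), a call lost in 13 of its 21 alternatives, 7 of them leave-outs. Xcr1, the other tested gene of that list, was at -0.21 (adjusted p = 0.691), and the list stayed at or under 37.0 CPM in all libraries. Macrophage and monocyte markers summed to at most 9.99 CPM, NK cell markers to 21.7, CD4 T cell markers to 16.8, neutrophil markers to 2.38 and erythroid markers to 7.27, with no called gene among them. Neat1 and Kcnq1ot1, nuclear transcripts read as a sign of RNA quality, rose with both treatments, by 0.90 and 0.91 on the log2 scale under D-2HG and by 0.97 and 0.75 under L-2HG. Malat1, the remaining nuclear transcript of that list, was at -0.15 (edgeR adjusted p = 0.623) and 0.05 (0.888). All 12 of these marker and RNA quality calls were lost with the satellite share as a covariate, without control replicate 1 and without control replicate 3, and each was lost in 2 to 7 leave-outs, at adjusted p up to 0.242. The part of these movements in the members' values was not tested.

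Over the 9 libraries, the tested genes whose log2 CPM ran most like Fos were Il15ra (Pearson r = 0.964), Il12rb1 (0.964) and Rab32 (0.963). Those nearest to Nr4a1 were Mutyh (0.973), Pmm1 (0.965) and Mfsd12 (0.940), and those nearest to Junb were Erbb3 (0.971), Pja2 (0.966) and Plekhb2 (0.962). Egr2 was nearest to Gm37407 (0.932), Aagab (0.926) and Rnf4 (0.910). These are descriptions over 9 points that share libraries, depth and groups, picked as the highest of all tested genes. Some of the named genes were low, with mean levels of 3.41 (Erbb3), 4.34 (Gm37407), 7.56 (Rab32), 10.4 (Mutyh) and 10.9 CPM (Mfsd12). In L-2HG replicate 2, 3 counts equal 5.92 CPM. The others averaged 20.8 (Il12rb1) to 399 CPM (Rnf4).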

How the data were processed

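Per the labels' protocols, polyadenylated RNA was copied to cDNA from an oligo(dT) primer, amplified and cut with Tn5 (Nextera XT). Per the submitters' processing notes, STAR 2.7.3a, featureCounts and mm10 were used; the strand setting and annotation release are not given in the sources used here. The authors deposited raw counts per gene and a table of normalized values, a signal scaled by size factors; 100% of its 225268 values above 0 returned whole reads within 0.01, equal to the raw counts, which were used here. The limit for a count of 0 (3 counts) covers counting error only.

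Genes passing edgeR's filterByExpr (10235, minimum count 10) were scaled by TMM and tested in edgeR 4.0.16 (R 4.3.3) with robust quasi-likelihood fits of 1 mean per group over 9 libraries; p-values were Benjamini-Hochberg adjusted over all tested genes, with a threshold of 0.05. CPM values are counts over TMM-scaled totals, and exon lengths are unions of GENCODE exons. Log ratios used a prior count of 2. DESeq2 1.42.0, limma 3.58.1 voom, other scalings, filters, covariates, depth and left-out libraries were alternatives. The members and the gene lists were chosen with earlier results of these data known. Per list and comparison, up to 4 called genes of each direction with the smallest adjusted p are named, and for Fos, Nr4a1, Junb and Egr2 the 3 genes of highest correlation. The TRE-like octamer was searched after the Jun window was seen. Counts of all replicate pairs differed by more than sampling noise (chi-square per degree of freedom 5.84 to 42.5). The fits were tested on simulated data.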

Additional observations from a re-analysis of the deposited data

Results flagged for a closer look

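Egr1 is listed because every D-2HG library lay below the control mean of 210 CPM and every L-2HG library above it. Both treatments overlapped the control range of 165 to 236 CPM, and neither passed against control. The difference, D-2HG against L-2HG, was -0.77 on the log2 scale and did not pass edgeR's test after adjustment (adjusted p = 0.202). It passed with limma-voom (adjusted p = 0.0117) and with the satellite share as a covariate (-0.81, adjusted p = 0.0271). In the other 21 of its 23 alternatives it did not pass. With 1 library left out, the edgeR adjusted p ran from 0.0766 to 0.821.

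Rgs1, of the list of other immediate early genes, differed between the isomers by 1.39 on the log2 scale, D-2HG against L-2HG (edgeR adjusted p = 0.0061), with all 3 D-2HG libraries above all 3 L-2HG libraries. The call was lost without L-2HG replicate 1 (adjusted p = 0.0571) and without D-2HG replicate 3 and L-2HG replicate 2 together (log2 1.29).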

How the results depend on the processing

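Of 615 values of single members under the alternatives, 565 kept their direction and their side of the threshold, 13 newly passed, 18 no longer passed and 19 changed sign, all of the latter in values that had not been called. The cause of these shifts was not tested. The Fos call with D-2HG was lost in 1 of its 23 alternatives, the satellite share as a covariate. Fos with L-2HG passed in DESeq2 (-0.83, adjusted p = 0.0433), in limma-voom, without a count filter and without control replicate 2.

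Genes called with D-2HG numbered 2278 and became 5617 in limma-voom, 1341 without a count filter, 96 with the satellite covariate, 702 after thinning to the smallest library, 1169 without D-2HG replicate 3 and L-2HG replicate 2 together (an alternative added after seeing the data) and 384 to 4257 with 1 library left out; members called were 3 in limma-voom and 0 with the covariate. With L-2HG, 1812 genes became 5180 in limma-voom, 1195 at a mean count of at least 50, 427 with only the 2 groups in the fit, 8 with the covariate, 681 after background subtraction, 658 after thinning, 560 without both libraries and 65 to 4108 with 1 left out. Members called with L-2HG were 5 in limma-voom, 1 without TMM, after background subtraction or after thinning, 0 with only the 2 groups, with the covariate or without both libraries, and 0 to 4 with 1 left out. Between the isomers, 31 genes became 49 in DESeq2, 177 in limma-voom, 76 with the covariate, 10 after thinning, 13 without both libraries and 10 to 60 with 1 left out; members called were 1 (Egr1) in limma-voom and 2 (Egr1 and Nr4a3) with the covariate. Members whose ranges did not overlap between D-2HG and control went from 5 to 2 without TMM (also added after seeing the data). Jun had no value at a mean count of at least 50 or after thinning.

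Signs changed with the covariate for Egr2 (0.026), Egr3 (-0.096) and Nr4a2 (-0.094) with D-2HG and Egr2 (0.15) with L-2HG, and without a filter for Nr4a3 with L-2HG (-0.12; -0.066 to 0.30 with 1 library left out). Between the isomers they changed for Egr2 in DESeq2 (0.011), without a filter (0.10) and without both libraries (0.028), for Junb likewise (0.0052, 0.098 and 0.020), and for Nr4a1 without a filter (0.021). Leaving 1 library out gave -0.20 to 0.14 for Egr2, -0.10 to 0.023 for Junb, -0.19 to 0.051 for Nr4a1, -0.00059 to 0.76 for the Egr2 to Egr3 ratio between the isomers and -0.39 to 1.30 for the Fosb to Fos ratio with L-2HG.

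Deviations from the group mean correlated at -0.17 to 0.28 between libraries of the same replicate number. Libraries of different numbers were not compared, so these values cannot tell whether the numbers pair the samples. With the replicate number as a block, 2314, 2284 and 35 genes and 1, 2 and 0 members were called, and no member call changed. Jun and Fosb are limited by depth.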
